A study of Mus musculus with 16 samples.

Results

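The Ly6/uPAR family comprises small cell-surface and secreted proteins built from a cysteine-rich domain whose finger-like loops are held together by disulfide bonds. Most members are attached to the outer leaflet of the plasma membrane by a glycosylphosphatidylinositol (GPI) lipid anchor, and they act in cell adhesion, protease binding, complement control and modulation of nicotinic acetylcholine receptors. Several serve as markers, such as Ly6a (Sca-1) for stem and progenitor cells and Ly6g for neutrophils. Described here are 8 family genes, Ly6f, Lypd5, Ly6a, Ly6c1, Ly6d, Ly6e, Lypd3 and Plaur, out of 23306 genes in the table. Ly6f was chosen because its level rose under hormone treatment and Lypd5 because its level differed between genotypes, so those contrasts are given for these genes as descriptions without a test. A wider list of 48 family symbols had 29 rows in the table, of which 26 reached the level needed for testing, and all 8 genes were among them.

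RNA-seq was carried out on 16 libraries of organoids, small epithelial structures grown in culture, from mouse endometrium, the lining of the uterus. The genotype was control (Tgfbr2 FF, floxed alleles of the type II TGF-beta receptor gene) or Tgfbr2 cKO (Tgfbr2 PRcre+), and PR-Cre drives recombination in cells that express the progesterone receptor. All organoids had 2 days of culture, followed by 6 days of vehicle or of hormone, the latter being 10 nM estradiol (E2) for 2 days and then the same E2 dose plus 1 µM of the progestin medroxyprogesterone acetate (MPA) for 4 days. The groups of 4 libraries were control under vehicle (M1 to M4), cKO under vehicle (M5 to M8), control with E2/MPA (libraries M9 to M12) and cKO with E2/MPA (libraries M13 to M16). The cKO libraries alone carry PR-Cre, so loss of the receptor and presence of the recombinase cannot be told apart. E2 and MPA were given together in every hormone group, so their effects cannot be told apart either.

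Levels are normalised read counts, each library's gene reads divided by a size factor. Depth was 14372111 to 20016836 reads per library. Folds were taken from log2(value + 1), a scale that understates changes at low levels. Adjusted p-values come from 1 limma fit over 16509 genes, and a gene is called when its adjusted p is below 0.05. Whether libraries of 1 group derive from different animals is not stated in the labels, and the p-values therefore reflect only how far these samples spread, part of which may be technical. Tgfbr2 itself stood in cKO libraries at 72.5% (vehicle) and 82.4% (E2/MPA) of its control level, with adjusted p = 0.833 and 0.690. Which exons are floxed is not stated, so a total over the gene does not check the genotype. Epithelial markers were high in every library, for example Epcam at 10522 to 18672 and Krt8 at 17903 to 33402. The 15 stromal marker genes had their highest mean level of each group in M4, M8, M12 and M16, called stroma-rich below.

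The promoter windows of Ly6f and of Ly6g, its neighbour but one on chromosome 15, are shown because they were the most alike among the family promoters compared with Ly6f, while the levels of the genes moved in opposite directions under hormone. Each window runs from 250 bases before to 50 bases after the start annotated by RefSeq, on the GRCm38.p6 build, and capitals mark runs of at least 15 bases that are identical in both. The Ly6f window is chr15:75268171-75268470 on the plus strand and the Ly6g window chr15:75155079-75155378, also on the plus strand.
Ly6f: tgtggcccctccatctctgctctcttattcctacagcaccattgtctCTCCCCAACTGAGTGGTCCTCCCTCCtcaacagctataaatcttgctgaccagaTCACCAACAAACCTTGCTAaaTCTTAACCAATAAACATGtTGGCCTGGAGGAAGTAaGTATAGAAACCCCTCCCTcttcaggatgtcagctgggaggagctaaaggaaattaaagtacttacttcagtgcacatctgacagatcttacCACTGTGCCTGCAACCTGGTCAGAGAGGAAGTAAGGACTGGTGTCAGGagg
Ly6g: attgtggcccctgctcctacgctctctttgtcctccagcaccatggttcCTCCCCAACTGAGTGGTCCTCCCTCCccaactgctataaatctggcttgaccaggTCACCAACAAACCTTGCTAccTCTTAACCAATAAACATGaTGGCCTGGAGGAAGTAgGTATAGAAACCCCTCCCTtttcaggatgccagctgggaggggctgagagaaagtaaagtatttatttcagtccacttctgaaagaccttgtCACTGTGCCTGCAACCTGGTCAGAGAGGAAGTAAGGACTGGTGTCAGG
In a global alignment 263 of the 300 bases of the Ly6f window were identical in Ly6g, or 87.7%. The closest windows of Ly6a2, Ly6c2 and Ly6c1 reached 77.3%, 77.3% and 77.0%, and those of the chromosome 7 genes Plaur, Lypd5 and Lypd3 58.0%, 57.7% and 57.3%, close to the value of 56.0% for Pinlyp. Runs shared with Ly6g covered 145 bases of the Ly6f window, those shared with the corresponding window of Ly6c1 92 bases, and those shared with Lypd5 0 bases.

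The window of Lypd5, chr7:24348946-24349245 on the plus strand, is shown because it is the gene with the genotype difference. Capitals mark the 50 bases after the annotated start.
Lypd5: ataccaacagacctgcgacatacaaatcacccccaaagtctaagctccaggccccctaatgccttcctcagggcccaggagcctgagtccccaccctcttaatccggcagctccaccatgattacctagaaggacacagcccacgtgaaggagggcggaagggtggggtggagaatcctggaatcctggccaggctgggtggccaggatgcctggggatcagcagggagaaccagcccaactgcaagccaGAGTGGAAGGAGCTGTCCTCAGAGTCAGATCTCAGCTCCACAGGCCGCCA
RefSeq windows were found for 5 of the 8 genes, Ly6f, Lypd5, Ly6c1, Lypd3 and Plaur. They were searched on both strands for the full steroid receptor element that progesterone and glucocorticoid receptors share (in 0.0645% of all windows) and for its shorter forms ACANNNTGT (6.83%) and TGTTCT (18.9%), which can overlap it. The other motifs were the full palindromic estrogen receptor element (0.0707%) and its shorter form AGGTCA, the SMAD motifs GTCTAGAC (0.215%) and CAGACA (20.9%), and the TATA box TATAAA. The Ly6f window held TATAAA, 169 bases before the start, and none of the other motifs. TATAAA occurs in 13.6% of the 32544 promoter windows of the same length. The Ly6g window held TATAAA 167 bases before the start and, unlike Ly6f, AGGTCA 149 bases before it, a motif present in 16.2% of all windows. The Ly6c1 windows held the TATA box, the shorter estrogen receptor motif and the shorter SMAD motif. The Lypd5, Lypd3 and Plaur windows held none of these letters. A match is a description of the sequence and not evidence of binding.

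Ly6f (ENSMUSG00000022583), a member of the chromosome 15 cluster whose function is little studied, was low under vehicle and among the abundant family transcripts under E2/MPA. In control organoids under vehicle its normalised read counts were 9.78, 32.7, 36.0 and 5.60 in M1 to M4. In cKO organoids under vehicle they were 14.6, 24.4, 21.5 and 6.69 in M5 to M8. Under E2/MPA they were 1346, 1787, 1993 and 477 in control libraries M9 to M12. In cKO libraries M13 to M16 they were 911, 923, 979 and 377. Every hormone library was above every vehicle library of both genotypes, and this rise chose Ly6f. Within a genotype, a weaker condition, 6.66% of all tested genes showed such an order in control and 8.01% in cKO. The share over both genotypes together was not counted. The mean went from 21.0 ± 15.6 to 1401 ± 672 (SD, n = 4) in control organoids and from 16.8 ± 7.87 to 798 ± 282 (SD, n = 4) in cKO organoids. On the log2 scale the differences were 6.16 (SE 0.60), or 71.3-fold, and 5.53 (SE 0.60), or 46.3-fold. The Ly6f vehicle levels rested on 90 reads over the 4 control libraries and 69 over the 4 cKO libraries, against 5703 and 3024 under E2/MPA. None of the 829 stretches of 50 bases in its annotated transcripts occurred in another gene's transcripts, so its reads are not shared with its near copies at that length.

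The genotypes were not separated for Ly6f. The cKO level was 93.6% of control under vehicle (log2 -0.09, SE 0.60, adjusted p = 0.991) and 60.7% under E2/MPA (log2 -0.72, SE 0.60, adjusted p = 0.725), and libraries overlapped in both contrasts. The 95% interval of the ratio under E2/MPA ran from 0.252 to 1.47. The difference between the hormone effects of the genotypes was -0.62 on the log2 scale (SE 0.84). The group means ran, from high to low, control E2/MPA, cKO E2/MPA, control vehicle and cKO vehicle, and within each treatment the neighbours did not differ beyond their spread.

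Within each group Ly6f was lowest in the stroma-rich library. The 15 stromal markers, led by Col1a1 and Col1a2, were all in the table and none was at 0 throughout a group. Under vehicle their summed level was 1088 to 65086 in control and 2196 to 27818 in cKO libraries. Under E2/MPA it was 2099 to 55911 and 3049 to 45290. In bulk samples fewer cells of a type and less RNA per cell cannot be told apart. Compared between the stroma-rich libraries alone, Ly6f was 72.5-fold higher under E2/MPA in control and 49.2-fold in cKO. Between the other 3 libraries of each group it was 70.9-fold and 45.3-fold higher. The stroma-rich side is only 1 library per group. The others were not all low, since M1 and M9 had mean log2 stromal levels of 7.50 and 8.28, beside 8.63 in M8. With the stromal mean as a covariate in the limma fit, the genotype difference under E2/MPA was -0.89 on the log2 scale with adjusted p = 0.0401, and this was the 1 setting of 30 in which it was called. The plot against stromal marker level shows these values.

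**Figure D1:**
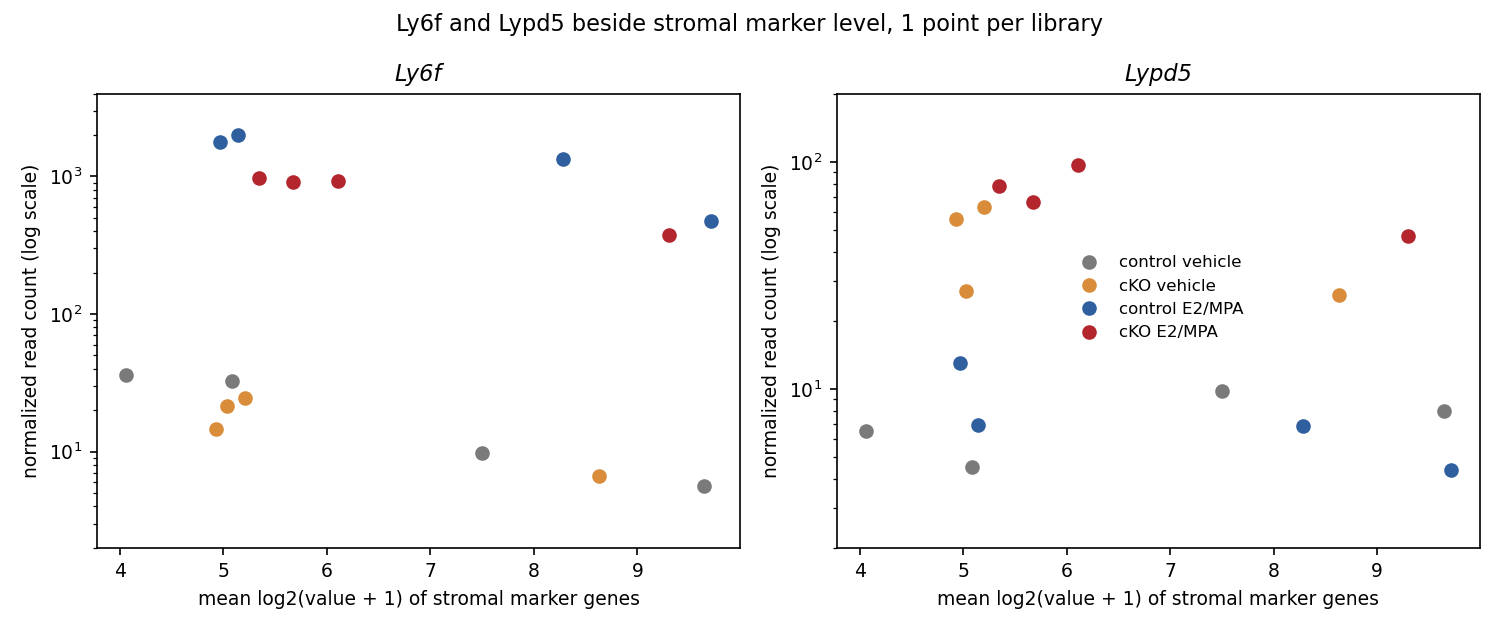
Normalised read count (log axis) of Ly6f (left) and Lypd5 (right) against the mean log2(value + 1) of 15 stromal marker genes, 1 point per library and colours for the 4 groups. Ly6f separates by hormone among the stroma-rich libraries, only 1 per group, and among the others, and Lypd5 separates by genotype in both sets.

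Lypd5 (ENSMUSG00000030484) encodes a predicted GPI-anchored protein of the LYPD branch. Its levels in control organoids were 9.78, 4.52, 6.55 and 8.00 under vehicle and 6.87, 13.0, 6.91 and 4.40 with hormone. In cKO organoids they were 56.1, 63.0, 27.1 and 25.9 under vehicle. Under E2/MPA the cKO levels were 66.6, 96.9, 78.6 and 47.3. The lowest cKO library was above the highest control library under both treatments. Of all tested genes 1.64% were higher and 1.37% lower in every cKO library under vehicle, 3.82% and 2.35% under E2/MPA, and 0.479% and 0.151% under both treatments (0.63% in either direction). Under vehicle the group means were 7.21 ± 2.23 in control and 43.0 ± 19.3 in cKO organoids, and with E2/MPA 7.79 ± 3.66 and 72.4 ± 20.8 (SD, n = 4 each). The genotype difference was 2.36 on the log2 scale (SE 0.37), or 5.12-fold, under vehicle, and 3.10 (SE 0.37), or 8.58-fold, under E2/MPA.

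These Lypd5 values rest on few reads, 32 and 31 over the 4 control libraries of each treatment and 180 and 279 over the cKO libraries. Of the 9 libraries in which Lypd5 reached 10, the level asked of at least 4 libraries, 8 were cKO, so it entered the test through the genotype in which it is high. Over all tested genes 0% were called for genotype under vehicle, where 984 of 16509 had an unadjusted p below 0.05, edgeR called 0 and DESeq2 called 14. Under E2/MPA 0.00606% were called, or 1 gene, and since this contrast chose Lypd5 nothing is read from that share. That count was 1 with edgeR, 185 with DESeq2, 597 with library weights, 474 with the stromal covariate, 14 without the stroma-rich libraries and 10 without M12. It was 3 without M1 and 2 without M2. It was 0 when only the compared groups were fitted, with a filter on a mean of 50, and without M9, M11, M13, M14 or M15. Among the stroma-rich libraries, only 1 per group, the genotype fold was 2.99 under vehicle and 8.95 under E2/MPA, against 6.12 and 8.46 among the others. Of the 17 squamous markers 14 were in the table, led by Sprr1a and Lor, and none was at 0 throughout a group. Their summed level was 11394 to 14642 in control and 14365 to 22022 in cKO libraries under vehicle. Under E2/MPA it was 6749 to 9855 and 10751 to 13989. Sprr1a alone was at 3133 to 16487, and the other markers did not all follow the sum. Over the 14 tested markers the median genotype difference was -0.22 on the log2 scale under vehicle and 0.10 under E2/MPA. Macrophage markers, 11 of 11 in the table with none at 0 throughout a group, were led by Cd14 and Lyz2. They summed to 18206 to 35463 and 11540 to 31908 under vehicle, and to 15462 to 33300 and 16973 to 25508 with hormone. Cd14 alone was at 4137 to 31700. Over the 10 tested macrophage markers the median genotype difference was -1.27 on the log2 scale under vehicle and -1.21 under E2/MPA, lower in cKO. The part of these cells in the Lypd5 difference was not tested.

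E2/MPA left Lypd5 without a called change. The hormone difference was 0.06 on the log2 scale in control (SE 0.37, adjusted p = 0.950) and 0.80 in cKO (SE 0.37, adjusted p = 0.259), with overlapping libraries in both. In cKO organoids the 95% interval of the hormone ratio was 1.01 to 3.00. The difference between the hormone effects was 0.75 on the log2 scale (SE 0.52). The genes next to Lypd5 on chromosome 7, Zfp94 and Kcnn4, were not called for genotype under E2/MPA (log2 0.03, adjusted p = 0.973, and 0.28, adjusted p = 0.783). In this contrast 0.00606% of all tested genes were called, so a missing call says little about them.

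**Figure D2:**
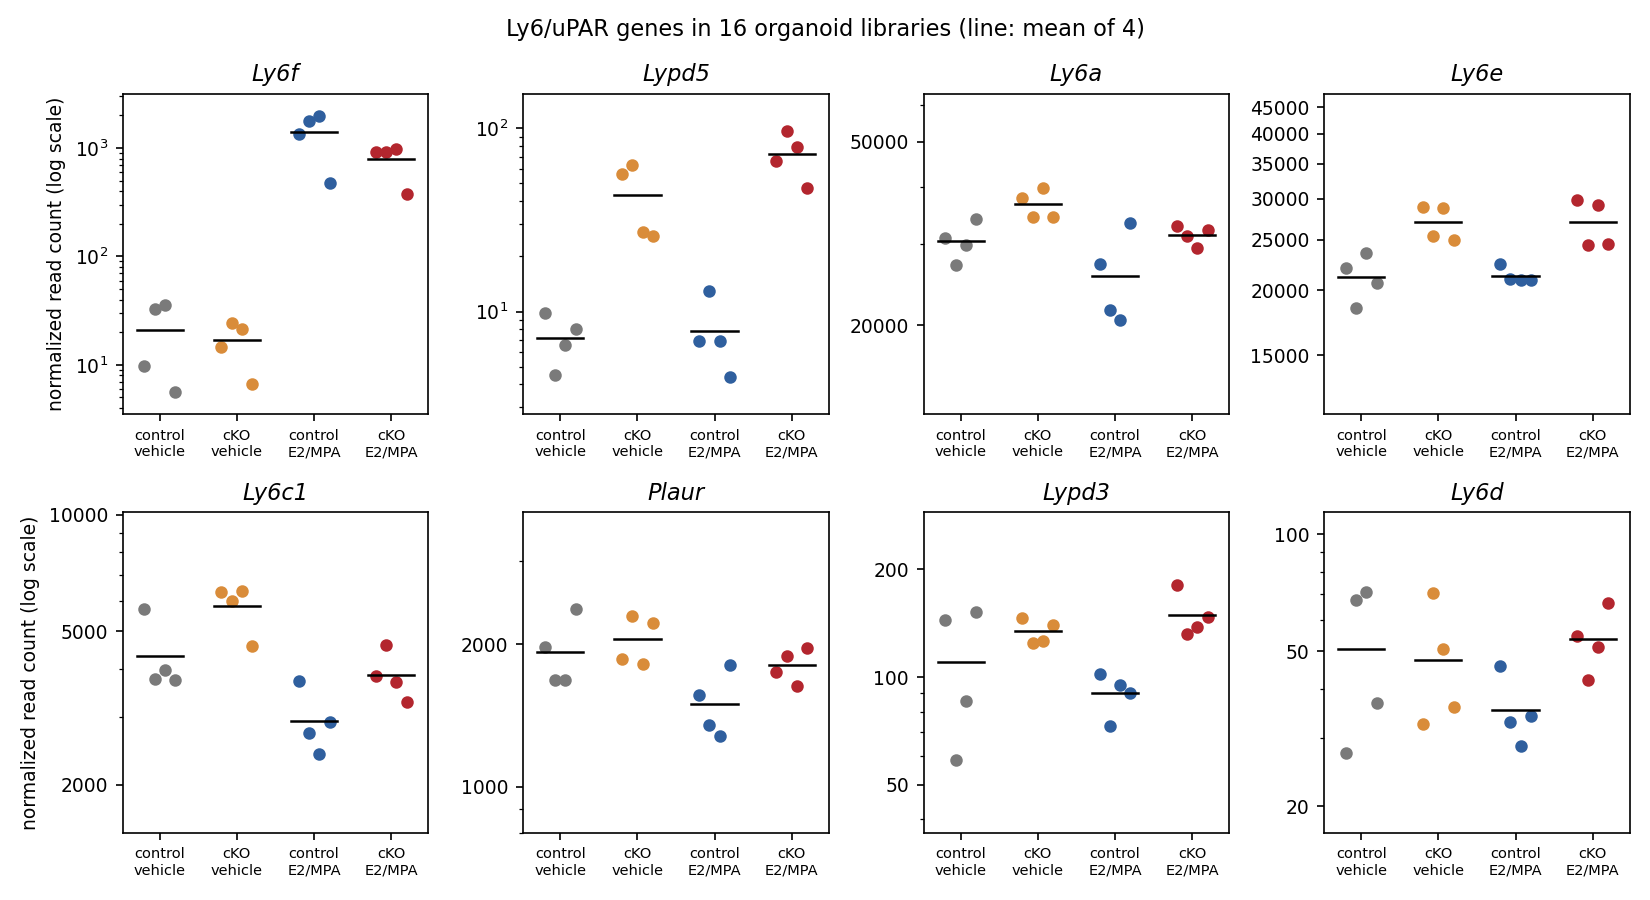
Normalised read count (log axes, scaled per gene) of the 8 genes in 16 libraries, grouped by genotype and treatment, with points for libraries and a line at the mean of 4. Ly6f stands at 377 to 1993 under E2/MPA and 5.60 to 36.0 under vehicle, and Lypd5 at 25.9 to 96.9 in cKO and 4.40 to 13.0 in control libraries.

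Per kilobase of annotated exon the family spanned several orders of magnitude. In control organoids under vehicle the mean level per kilobase was 25304 for Ly6a, 5602 for Ly6e, 2563 for Ly6c1, 737 for Plaur, 68.2 for Ly6d, 66.9 for Lypd3, 24.0 for Ly6f and 3.22 for Lypd5. Under E2/MPA in control organoids Ly6f stood at 1595 ± 766 per kilobase, within the spread of Ly6c1 at 1750 ± 331 and above Plaur at 573 ± 90.3 (SD, n = 4 each). Lypd5 was the lowest of the 8 in control groups and in cKO organoids under E2/MPA, at 32.3 ± 9.30 per kilobase in the latter, where Ly6d was at 72.2 ± 13.6. In cKO organoids under vehicle Lypd5 at 19.2 ± 8.61 and Ly6f at 19.1 ± 8.97 per kilobase did not differ beyond their spread.

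Ly6a and Ly6e, both known as interferon-inducible genes, were the most abundant members. Ly6e (ENSMUSG00000022587), which also influences entry of several viruses into cells, was at 22115, 18490, 23549 and 20644 in control and 28867, 25467, 28855 and 24952 in cKO libraries under vehicle. Under E2/MPA it was at 22465, 21051, 20955 and 20893 in control libraries. In cKO libraries under E2/MPA it was at 29871, 24462, 29162 and 24547. Every cKO library was above every control library within each treatment, a pattern that 0.479% of all tested genes showed in this direction. Apart from Lypd5, which was chosen for it, Ly6e was the only tested family gene with this pattern. The cKO level was 1.28-fold higher under vehicle (log2 0.35, SE 0.10, adjusted p = 0.779) and 1.26-fold higher under E2/MPA (log2 0.33, SE 0.10, adjusted p = 0.246). Neither was called in the limma fit, and DESeq2 and the fit with library weights called the difference under E2/MPA, with adjusted p down to 0.0359. Hormone made little difference to Ly6e, 0.01 on the log2 scale in control (95% interval -0.20 to 0.23) and -0.00 in cKO (SE 0.10, adjusted p = 0.992).

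Ly6a (ENSMUSG00000075602) ranged from 27081 to 34004 in control and 34317 to 39810 in cKO libraries under vehicle. Every cKO library was above every control library there, as in 1.64% of all tested genes. Under E2/MPA Ly6a ranged from 20517 to 33343 in control and 29481 to 32931 in cKO, with overlap. The cKO levels were above control by 0.26 (SE 0.13, adjusted p = 0.835) and 0.32 (SE 0.13, adjusted p = 0.402) on the log2 scale. Under hormone Ly6a was at 82.8% of vehicle in control (adjusted p = 0.236) and 86.0% in cKO (adjusted p = 0.428), where all hormone libraries were below all vehicle libraries, as in 5.8% of tested genes. The control hormone library with the highest Ly6a was stroma-rich M12. Without M12 the difference in control was -0.41 on the log2 scale and was called (adjusted p = 0.0318). It was also called with library weights (0.0385) and with a random block of libraries whose numbers lie 8 apart (0.0459), a pairing that the labels do not state. Library weights called the genotype difference under E2/MPA too (0.0356). Of the stretches of 50 bases in Ly6a transcripts 19.0% recur in other genes, mostly Ly6c1, so part of its count is uncertain.

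Ly6c1 (ENSMUSG00000079018) is a marker of endothelium among other cells. Its levels were 5720, 3757, 3971 and 3746 in control and 6319, 5974, 6359 and 4573 in cKO libraries under vehicle. Under E2/MPA it stood at 3708, 2725, 2404 and 2900 in control libraries. In cKO libraries under E2/MPA it stood at 3834, 4612, 3693 and 3271. Control hormone libraries were all below control vehicle libraries, which 5.49% of all tested genes showed, whereas the cKO libraries overlapped. The hormone level was 68.5% of vehicle in control (log2 -0.55, SE 0.16, adjusted p = 0.0516) and 66.4% in cKO (log2 -0.59, SE 0.16, adjusted p = 0.0572). Neither passed the threshold, and each was called in 10 of 30 other settings, with adjusted p from 0.00162 to 0.161 in control and from 0.00150 to 0.150 in cKO. The lowest value of each range came from the block of libraries 8 apart. The cKO level was 1.36-fold that of control under vehicle (adjusted p = 0.801) and 1.32-fold under E2/MPA (adjusted p = 0.390). Of the 50-base stretches of Ly6c1 32.8% recur elsewhere, 21.5% in Ly6c2, whose own level was at most 10.0 in any library. Endothelial markers, 7 of 10 in the table with none at 0 throughout a group, summed to 80.2 to 621 in control and 80.8 to 207 in cKO libraries given vehicle, and to 110 to 307 and 73.8 to 224 in those given hormone. Their part in the Ly6c1 values was not tested.

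Plaur (ENSMUSG00000046223) encodes the urokinase receptor uPAR, which holds the protease urokinase at the cell surface. It ranged from 1683 to 2378 in control and 1819 to 2296 in cKO libraries under vehicle, and from 1280 to 1804 and 1630 to 1969 under E2/MPA. The hormone level was 77.8% of vehicle in control (log2 -0.36, SE 0.13, adjusted p = 0.0982) and 88.5% in cKO (log2 -0.18, SE 0.13, adjusted p = 0.519), with overlap in both. The cKO level under E2/MPA was 1.21-fold that of control (adjusted p = 0.454). Plaur was highest in stroma-rich M4 and M12 within the control groups. The hormone difference in control was called without M12 (-0.46 on the log2 scale, adjusted p = 0.0312), with library weights (0.0400), with the block of libraries 8 apart (0.00332) and with the stromal covariate (0.00102). With the stromal covariate the hormone difference in cKO (-0.23, adjusted p = 0.0432) and the genotype difference under E2/MPA (0.31, adjusted p = 0.0343) were called as well.

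Lypd3 (ENSMUSG00000057454), known as C4.4A and expressed in stratified squamous epithelium, was at 145, 58.7, 85.9 and 152 in control and 146, 124, 126 and 140 in cKO libraries under vehicle. Under E2/MPA it was at 102, 73.0, 95.1 and 90.2 in control libraries. In cKO libraries under E2/MPA it was at 181, 132, 138 and 147. All cKO hormone libraries were above the control ones, as in 3.82% of all tested genes. The difference was 1.65-fold (log2 0.73, SE 0.24, adjusted p = 0.294) and was not called in any of 30 other settings, where adjusted p went down to 0.0530. Under vehicle it was 1.30-fold (adjusted p = 0.869) with overlap. Lypd3 overlaps Gm26550 on the opposite strand, and without a stated strand setting their reads cannot be told apart, although Gm26550 averaged 12.2 against 121 for Lypd3.

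Ly6d (ENSMUSG00000034634), a marker of early B-lineage cells and of stratified epithelia, stayed low, at 27.4 to 71.2 in control and 32.5 to 70.6 in cKO libraries under vehicle. Under E2/MPA it was at 28.5 to 45.8 in control and 42.3 to 66.7 in cKO libraries. Its largest difference was 1.51-fold, cKO over control under E2/MPA (log2 0.59, SE 0.31, adjusted p = 0.521). Of the 10 lymphocyte markers only Ptprc and Cd79a were in the table.

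Of these 8 genes, leaving out the contrasts that chose Ly6f and Lypd5, none was called for hormone or genotype in the main limma fit. That is the fit whose adjusted p-values are given without naming a setting. With the block of libraries 8 apart, Ly6a, Ly6c1 and Plaur were called for hormone in control and Ly6c1 in cKO, at the adjusted p-values given for each gene. Library weights called the same genes for hormone, and Ly6a and Ly6e for genotype under E2/MPA. Leaving out M12 called Ly6a and Plaur for hormone in control. Over all tested genes 8.9% were called for hormone in control, 5.39% higher and 3.51% lower, and 4.19% in cKO, 2.71% higher and 1.48% lower. With quantile normalization the share of higher among called genes changed from 60.6% to 48.5% in control and from 64.6% to 54.7% in cKO. The plot of effects gives the intervals.

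**Figure D3:**
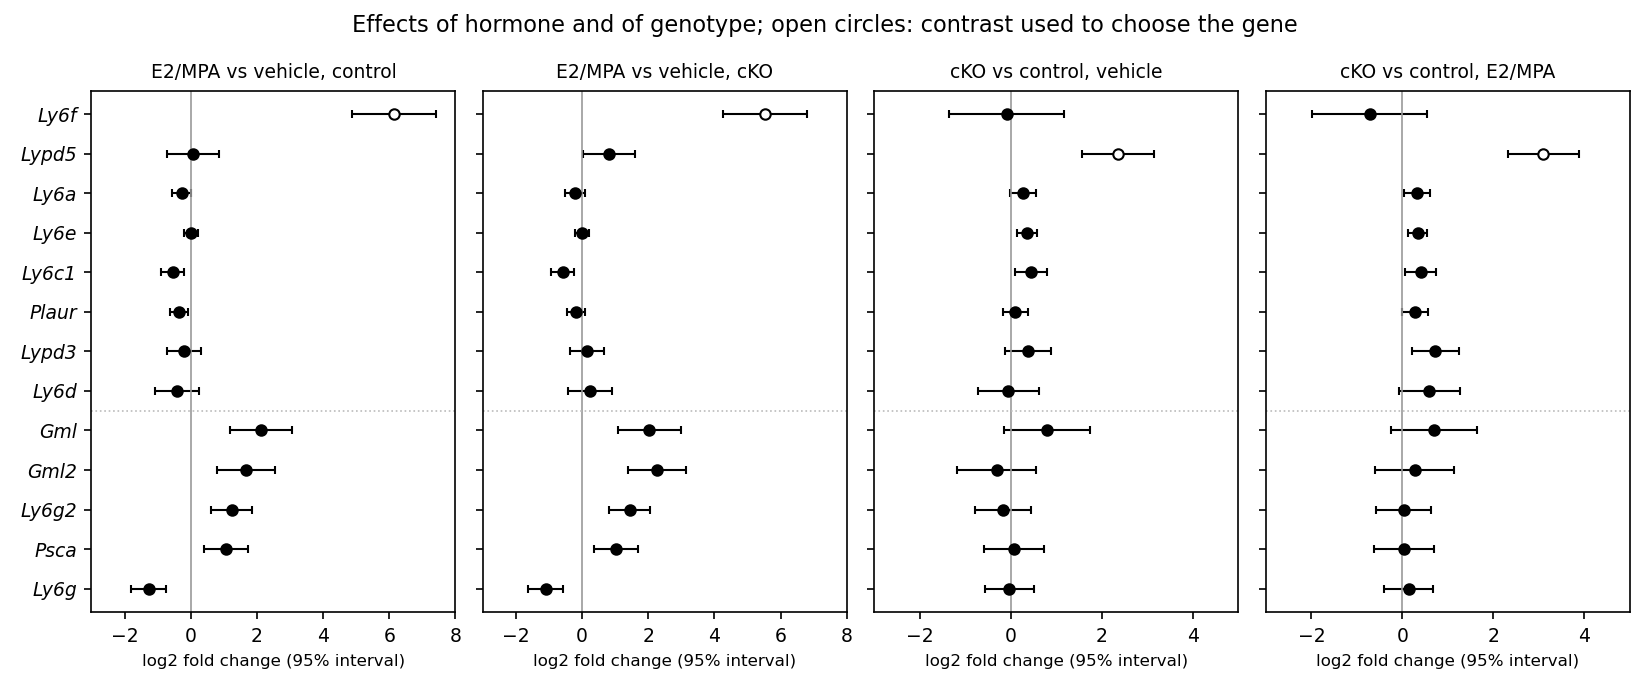
Log2 fold change with 95% interval in 4 contrasts for the 8 genes (above the dotted line) and 5 further family genes, with open circles where the contrast was used to choose the gene. Ly6f is far to the right in both hormone panels, Lypd5 in both genotype panels, and Gml, Gml2, Ly6g2 and Psca lie to the right and Ly6g to the left under hormone.

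In the wider family, 5 of 25 tested genes other than Ly6f were called for hormone in control, Gml, Gml2, Ly6g2 and Psca higher and Ly6g lower, and 4 of 25 in cKO, which were these genes without Psca. Gml2 entered the test through the hormone groups, and without it these counts were 4 and 3. The median log2 difference of the 26 tested family genes was 0.04 in control and 0.19 in cKO, beside -0.00 and -0.00 over all genes. Without Ly6f and Lypd5 it was 0.01 and 0.14. For genotype 0 of 25 genes other than Lypd5 were called by limma under vehicle, where 2 had an unadjusted p below 0.05. Under E2/MPA 0 of 25 were called, where 6 had such a p. Over all tested genes 5.96% had an unadjusted p below 0.05 under vehicle and 10.9% under E2/MPA. edgeR called 0 in both, and DESeq2 called 0 and, under E2/MPA, Ly6e. For the interaction 0 of 24 genes were called, none had an unadjusted p below 0.05, and edgeR and DESeq2 called 0. All 3 tools also called 0 of the 16509 tested genes for it, and 1.87% of those had such a p in limma. Among the 24 tested family genes without Ly6f and Lypd5, 4 were higher and 0 lower in every cKO library under E2/MPA, namely Ly6e, Lypd3, Lynx1 and Gml, beside the 3.82% and 2.35% over all genes. Their median genotype difference under E2/MPA was 0.21 on the log2 scale, beside -0.01 over all genes.

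Gml and Gml2, GPI-anchored genes that lie side by side in the cluster, were higher with hormone in both genotypes. Gml was at 3.91, 14.7, 9.00 and 3.20 in control vehicle and 33.2, 28.0, 34.6 and 31.9 in control E2/MPA libraries. In cKO organoids it was at 12.3, 15.1, 21.5 and 5.02 under vehicle and 86.8, 41.4, 49.0 and 43.0 with hormone. It rose 4.35-fold in control (log2 2.12, SE 0.44, adjusted p = 0.00814) and 4.10-fold in cKO (log2 2.03, SE 0.44, adjusted p = 0.0177), with no overlap in either. Such an order was shown by 6.66% of all tested genes in control and 8.01% in cKO. Without M13 the call in cKO was lost (adjusted p = 0.0665). Gml2 averaged 9.68 ± 6.07 under vehicle and 29.4 ± 3.53 with hormone in control (log2 1.67, SE 0.41), and 6.94 ± 2.59 and 38.9 ± 21.3 in cKO (log2 2.26, SE 0.41; SD, n = 4 each). Gml2 reached 10 in 2 of 8 vehicle and 8 of 8 hormone libraries and so was tested only because it was high there. Its difference is given as a description. These genes share 18.7% of the 50-base stretches of Gml and 14.4% of those of Gml2, so their separate values are uncertain.

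Ly6g2, Ly6g and Psca also changed. Ly6g2, matched to its row by position, rose from 60.4 ± 21.4 to 143 ± 45.6 in control (log2 1.23, SE 0.29, adjusted p = 0.0150, with overlap) and from 52.1 ± 12.1 to 142 ± 31.0 in cKO (log2 1.43, SE 0.29, adjusted p = 0.0108; SD, n = 4 each). The call in control was lost without M11 (adjusted p = 0.0579). Ly6g, in contrast, was at 286, 139, 138 and 258 in control vehicle and 80.1, 84.0, 66.5 and 90.2 in control E2/MPA libraries. In cKO it was at 195, 123, 219 and 245 under vehicle and 94.0, 86.3, 76.4 and 95.7 with hormone. Within each genotype the hormone libraries were all below the vehicle libraries, as in 5.49% of all tested genes in control and 5.8% in cKO. Ly6g fell by 1.27 on the log2 scale in control (SE 0.25, adjusted p = 0.00579) and by 1.10 in cKO (SE 0.25, adjusted p = 0.0220). The cKO call was lost without M5, M7, M8, M13, M14 or M15, with adjusted p up to 0.0736, and when the stroma-rich libraries M4, M8, M12 and M16 were left out together. Of 10 neutrophil and monocyte markers 6 were in the table, led by Itgam and S100a9 with none at 0 throughout a group. Their summed level was 64.6 to 272 under vehicle and 68.0 to 276 with hormone in control libraries. In cKO libraries it was 16.9 to 59.4 and 33.1 to 119. The part of these cells in the Ly6g values was not tested. Psca, a GPI-anchored antigen of prostate, stomach and bladder epithelium, rose from 46.6 ± 16.6 to 97.9 ± 34.8 in control (SD, n = 4 each; log2 1.06, SE 0.31, adjusted p = 0.0445) and was at 48.9 ± 16.5 and 95.7 ± 7.06 in cKO (log2 1.02, adjusted p = 0.0801). The control call of Psca held in 15 of 30 other settings and was lost without any 1 of M1, M2, M3, M6, M8, M9, M10, M12, M13, M14, M15 or M16, with adjusted p up to 0.107.

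On chromosome 15 the response was not uniform along the cluster. Ly6f, at 6.16 in control, lies next to Ly6g2 at 1.23, beyond which come Ly6g at -1.27, Ly6c1 at -0.55, Ly6a at -0.27 and Ly6i at -0.17 on the log2 scale. On its other side the nearest tested gene, Zfp41, was at -0.37 (adjusted p = 0.323). Gml and Gml2 lie further along, between Ly6k (0.84, adjusted p = 0.438) and Ly6m (0.54, adjusted p = 0.478). Ly6k overlaps Gm17189 on the opposite strand, so its reads are uncertain. Genotype made no called difference to any tested gene among the 5 on either side of Ly6f. Such a call was made for 0% of all tested genes under vehicle and 0.00606% under E2/MPA.

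**Figure D4:**
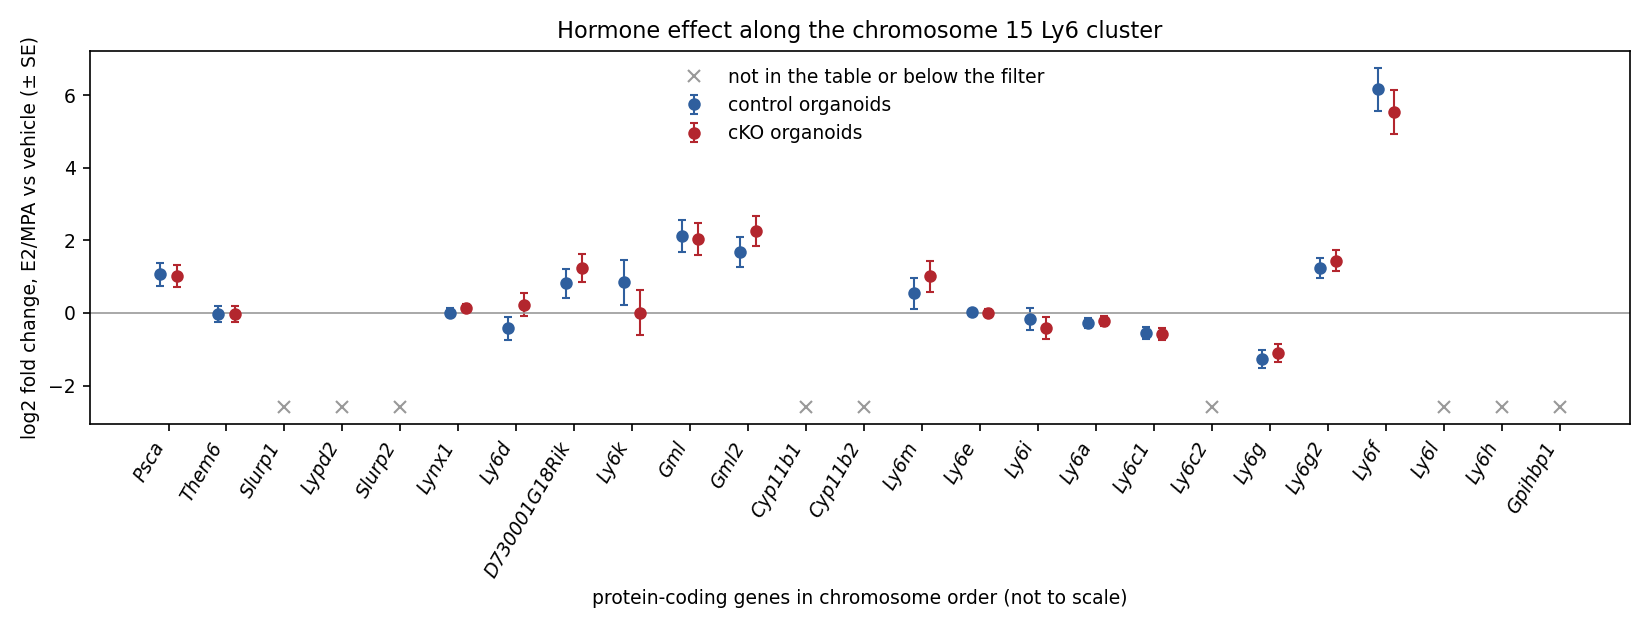
Log2 fold change of E2/MPA against vehicle (± SE) in control and cKO organoids for protein-coding genes in their order along the chromosome 15 Ly6 cluster, with crosses for genes that were not tested. Ly6f is at 6.16 and 5.53, its neighbour Ly6g2 at 1.23 and 1.43, and Ly6g, the next, at -1.27 and -1.10.

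The further abundant family genes were not called in the main limma fit. Pinlyp, a family gene related to phospholipase inhibitors, averaged 632 ± 583 in control vehicle and 1269 ± 452 in control E2/MPA, and 523 ± 306 and 1396 ± 644 in cKO (SD, n = 4 each). It was lowest in the stroma-rich library of each group, at 48.8, 66.1, 619 and 504, and the hormone difference was 1.79 on the log2 scale in control (SE 0.94, adjusted p = 0.265) and 1.71 in cKO (adjusted p = 0.357). The Pinlyp difference was called with the stromal covariate in both genotypes, with adjusted p = 0.00469 in control and 0.00612 in cKO, and with the block of libraries 8 apart in control. Lypd6b, a modulator of nicotinic receptors, was also lowest in those libraries (27.2, 47.7, 58.3 and 68.8) and had hormone differences of 1.44 (adjusted p = 0.176) and 1.18 (adjusted p = 0.340). Both Lypd6b differences were called with the stromal covariate, with the block and without the stroma-rich libraries, with adjusted p down to 0.000958 in control and 0.00341 in cKO. The one in control was also called with library weights and without M12, where it was 4.15-fold against 2.71-fold. Lynx1, another nicotinic receptor modulator, was at 280 to 430 over all libraries. It was 1.23-fold higher in cKO under E2/MPA (adjusted p = 0.390, no overlap, as in 3.82% of all tested genes). Cd59a, an inhibitor of the complement membrane attack complex, was at 175 to 465. Ly6g6d and Ly6g6e, which overlap on opposite strands, were at 41.2 to 69.4 and 11.8 to 52.4.

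Genes whose pattern was most like that of Ly6f were sought among 11442 genes by the root-mean-square difference of centred log2(value + 1) levels over the 16 libraries. They were Unc93a2 (0.61), Wfdc15b (0.84), Tshr (0.84), Zbtb16 (0.92) and Tcf15 (0.96). Unc93a2 averaged 4.14 ± 4.43 in control vehicle and 238 ± 103 in control E2/MPA, and Tshr, the thyrotropin receptor gene, 70.0 ± 69.2 and 1144 ± 555. Zbtb16, a zinc finger factor gene known to respond to progestins and glucocorticoids, averaged 0.282 ± 0.564 and 66.8 ± 0.658. For Lypd5 the nearest patterns were less close, Bglap3 (1.02), Crct1 (1.04), Bpnt1 (1.04), Fgfbp1 (1.04) and Hpcal4 (1.05). Crct1, a gene of the epidermal differentiation complex, averaged 1339 ± 117 in control and 2179 ± 474 in cKO organoids under vehicle, and 1318 ± 346 and 2553 ± 281 under E2/MPA. Fgfbp1, which encodes a carrier of fibroblast growth factors, averaged 445 ± 139 and 761 ± 104, and 540 ± 99.1 and 990 ± 108 (SD, n = 4 each).

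Of 14 tested genes of the urokinase system, in which Plaur is the receptor, limma called 1 higher and 2 lower for hormone in control and 1 higher and 0 lower in cKO, with medians of -0.52 and -0.24 on the log2 scale beside -0.00 over all genes. The counts of this and the following lists are to be read against the 5.39% of all genes called higher and 3.51% lower in control, and 2.71% and 1.48% in cKO. The integrin gene Itgb5 rose 1.46-fold in control (adjusted p = 0.00186) and 1.62-fold in cKO (adjusted p = 4.9e-04). The tissue plasminogen activator gene Plat fell by 0.53 in control (adjusted p = 0.0248) and the receptor gene Egfr by 0.58 (adjusted p = 0.0300), while in cKO they stood at -0.42 (adjusted p = 0.105) and -0.32 (adjusted p = 0.296).

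Of 29 genes that build or remodel the GPI anchor 2 were called higher and 1 lower in control and 1 higher and 0 lower in cKO, with medians of 0.05 in both. Pigh, a subunit of the enzyme that starts the anchor, rose from 88.1 ± 12.2 to 171 ± 19.9 in control (log2 0.95, SE 0.16, adjusted p = 0.00226) and from 90.4 ± 5.62 to 178 ± 39.6 in cKO (log2 0.94, SE 0.16, adjusted p = 0.00454; SD, n = 4 each). Pigg rose 1.42-fold in control (adjusted p = 0.0330) and Pign fell by 0.23 on the log2 scale (adjusted p = 0.0426). Of 28 other GPI-anchored surface genes 1 was higher and 2 lower in control, and 0 higher and 1 lower in cKO, with medians of 0.02 and 0.19. The ephrin gene Efna3 rose 1.82-fold in control (adjusted p = 0.00790), the complement regulator gene Cd55 fell by 0.42 there (adjusted p = 0.0390), and the cadherin gene Cdh13 fell by 1.10 in control (adjusted p = 0.0123) and by 0.97 in cKO (adjusted p = 0.0393).

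Of 27 interferon-stimulated genes, listed because Ly6a and Ly6e respond to interferon, 0 were higher and 1 was lower in either hormone contrast, with medians of -0.32 in control and -0.33 in cKO. The gene was Mx1, named after its values were seen, which fell by 1.12 on the log2 scale in control (adjusted p = 6.9e-04) and by 0.94 in cKO (adjusted p = 0.00464). The most abundant, Bst2 and Stat2, were at 0.18 and -0.02 in control (adjusted p = 0.683 and 0.951). For genotype limma called 0 genes of these 4 lists in either treatment, beside 0% of all tested genes under vehicle and 0.00606% under E2/MPA.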

How the data were processed

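The 8 genes, the gene lists and the alternatives were chosen with earlier results of these data known. Per the submitters' processing notes, HISAT2, featureCounts, DESeq2 and the build GRCm39 were used, without versions; the strand setting was not stated in these notes or labels. The authors deposited a signal per gene and library, read counts divided by a size factor. Multiplied by its factor every value gave whole reads within 0.01 read (100% in every library). Symbols came from GENCODE M21 for 22484 of 23306 genes, plus RefSeq synonyms for Ly6a2 and Ly6m and RefSeq position for Ly6g2. Exon lengths and gene order are also from GENCODE M21.

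Values were analysed as log2(value + 1). Genes reaching 10 in 4 or more libraries, 16509 of them, entered a limma fit (version 3.58.1, R 4.3.3) of all 16 libraries that estimated 4 group means with an intensity trend in the variance, tested two-sided with Benjamini-Hochberg adjustment at 0.05. The fit was also run on simulated data, with changes placed only in genes of a higher mean level than Lypd5. Its libraries were drawn independently, so the run does not cover such low genes or libraries that vary together. Alternatives were 14 settings, among them edgeR 4.0.16 and DESeq2 1.42.0 on the recovered reads, and leaving out each of 16 libraries. Named are the 8 genes, every called family gene and the 6 next highest by mean, up to 4 called genes per pathway list by lowest adjusted p or else the 2 highest, and the 5 nearest patterns of Ly6f and of Lypd5. Markers are named by mean level, besides Epcam. The Ly6g promoter was chosen for display after the values of Ly6g were seen.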

Additional observations from a re-analysis of the deposited data

Results flagged for a closer look

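In 32 sets of 4 libraries, the 8 genes in each group, the gap of 1 library to the others was compared with the range by Dixon's rule, and 3 sets exceeded its 95% critical value. Chance alone gives about 1 in 20. Ly6f in cKO organoids under E2/MPA was 377 in M16, below 911 to 979 in the others, a gap of 0.887 of the range. Ly6c1 in control organoids under vehicle was 5720 in M1, above 3746 to 3971 (0.886). Ly6e in control organoids under E2/MPA was 22465 in M9, above 20893 to 21051 (0.899).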

How the results depend on the processing

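Of the log2 differences of the 8 genes over 30 other settings, 33 values became called and 1149 are counted as unchanged. The 1149 include the contrasts that chose Ly6f and Lypd5, whose calls were not compared and whose direction did not change. In the other contrasts no value was called in the main limma fit, so none could lose a call. Ly6d and Lypd5 gave no value with a filter on a mean of 50, nor interactions when only the compared groups were fitted. Uncalled values near 0 changed sign in 36 cases, reaching at most 0.27 in size on the log2 scale. Ly6f was 51.8-fold to 97.7-fold higher under hormone in control and 36.1-fold to 58.0-fold in cKO over all settings. The Lypd5 genotype ratio was 3.74 to 6.12 under vehicle and 6.04 to 10.3 under E2/MPA. Family genes called for hormone in control, 5 besides Ly6f, numbered 2 when only the compared groups were fitted, 9 with library weights, 10 with a random block of libraries 8 apart, 9 with the stromal covariate and 3 to 7 when leaving out 1 library, the lowest without M1, M10 or M11. In cKO the count of 4 became 8 with the block, 9 with the stromal covariate and 2 to 5 when leaving out 1 library, the lowest without M13. For genotype under E2/MPA the count of 0 became 1 with DESeq2, 2 with library weights and 2 with the stromal covariate. The block is a pairing that the labels do not state, with an estimated correlation of 0.496, and the causes of these shifts were not tested. With only the compared groups fitted, Ly6g2 in control had adjusted p = 0.0877. The library numbers run from 1 to 16 and none is shared between groups, so the labels themselves give no pairing. Over all genes the calls for hormone in control, 1469, ranged from 484 with only the compared groups to 4479 with the block, and in cKO, 692, from 361 without M13 to 3098 with the block. For genotype under E2/MPA they ranged from 0 to 597. Lypd5 had only 31 and 32 reads over the control groups.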
